A study of Mus musculus with 6 samples.

Results

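The genes described here are 49 liver genes, 38 that encode plasma proteins and 11 that encode hepatocyte enzymes, followed in the dorsal pancreas of mouse embryos. They were chosen by gene symbol from a fixed list, and 41 of them had a row among the 14681 genes of the authors' deposited table: 32 plasma proteins and 9 enzymes. Apoa4, Apoc3, Fga, Itih3, Serpina6, Serpinc1, Cyp2e1 and Tdo2 had no row and were not analysed here. The study took the dorsal pancreas of C57BL/6 embryos at embryonic day 18.5 and sequenced total RNA in 3 control and 3 knockout samples, and the extraction protocol names the knockout as Dpy30∆P. The labels give no driver line for the deletion and no allele carried by the controls. DPY30 is a subunit shared by the Trithorax group complexes, which methylate histones at active genes.

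Hepatocytes, the main cells of the liver, make most proteins of blood plasma: albumin, carriers of lipid, iron and vitamins, clotting factors and protease inhibitors. They also hold enzymes that break down drugs, retinoids and amino acids and that mostly stay inside the cell. In the embryo the liver lies beside the pancreas and shares an endodermal origin with it, and the fetal liver also houses blood-forming cells. Some plasma protein genes are used by other tissues too, such as Apoe in macrophages and Ttr and Rbp4 in islet cells and other epithelia, whereas most of the enzymes are largely restricted to hepatocytes. The classes were set side by side as 2 readings of liver RNA in dissected pancreas. In bulk samples fewer cells of a type and less RNA per cell cannot be told apart.

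Liver genes of both classes are known targets of the factors HNF1, HNF4 and C/EBP, and the upstream sequences below show letters of that kind in some members. Sequences of 250 bases before the transcription start came from RefSeq (GRCm38.p6) and were matched by symbol for 40 of the 49 members. Capitals mark GTTAAT (an HNF1 core), CAAAGTCCA (an HNF4 core) and TTGNNCAA (a C/EBP palindrome), each on either strand, and no match overlapped another in these sequences. Albumin (Alb), alpha-fetoprotein (Afp) and fibrinogen beta (Fgb) are shown as abundant plasma proteins, and Hgfac as the plasma protein the authors called. Cyp2c68 and Cyp2c40 are shown as neighbouring enzyme genes called with opposite signs. Every window shown holds GTTAAT, which most members with a window lack. The windows of Rdh7 and Ces1c, the other called members, held none of these patterns and are not shown. The Alb window is chr5:90460620-90460869 on the plus strand and the Afp window chr5:90490464-90490713 on the plus strand. The Fgb window is chr3:83049864-83050113 on the minus strand and the Hgfac window chr5:35041259-35041508 on the plus strand. The Cyp2c68 window is chr19:39741102-39741351 on the minus strand and the Cyp2c40 window chr19:39812815-39813064 on the minus strand.
Alb: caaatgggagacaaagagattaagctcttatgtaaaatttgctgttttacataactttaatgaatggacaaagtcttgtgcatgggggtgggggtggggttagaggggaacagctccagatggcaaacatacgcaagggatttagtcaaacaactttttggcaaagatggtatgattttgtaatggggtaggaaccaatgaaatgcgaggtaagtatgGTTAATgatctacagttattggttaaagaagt
Afp: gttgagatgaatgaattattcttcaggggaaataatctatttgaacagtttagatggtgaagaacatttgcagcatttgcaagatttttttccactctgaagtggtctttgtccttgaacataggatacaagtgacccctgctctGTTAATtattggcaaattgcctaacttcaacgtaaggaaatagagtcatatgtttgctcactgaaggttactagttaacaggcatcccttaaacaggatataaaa
Fgb: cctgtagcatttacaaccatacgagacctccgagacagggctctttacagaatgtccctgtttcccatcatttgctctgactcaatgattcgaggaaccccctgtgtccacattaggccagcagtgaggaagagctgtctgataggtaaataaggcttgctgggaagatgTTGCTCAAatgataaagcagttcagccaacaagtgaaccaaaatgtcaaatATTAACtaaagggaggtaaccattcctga
Hgfac: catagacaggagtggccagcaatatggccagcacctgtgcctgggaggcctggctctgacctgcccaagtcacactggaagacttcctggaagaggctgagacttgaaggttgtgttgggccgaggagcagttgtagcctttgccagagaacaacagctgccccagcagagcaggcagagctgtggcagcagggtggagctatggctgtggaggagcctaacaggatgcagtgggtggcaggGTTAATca
Cyp2c68: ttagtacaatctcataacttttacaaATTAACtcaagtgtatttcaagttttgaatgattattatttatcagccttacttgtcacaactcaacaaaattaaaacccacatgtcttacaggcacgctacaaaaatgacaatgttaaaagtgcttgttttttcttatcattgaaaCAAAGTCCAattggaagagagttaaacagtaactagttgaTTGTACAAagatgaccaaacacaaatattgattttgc
Cyp2c40: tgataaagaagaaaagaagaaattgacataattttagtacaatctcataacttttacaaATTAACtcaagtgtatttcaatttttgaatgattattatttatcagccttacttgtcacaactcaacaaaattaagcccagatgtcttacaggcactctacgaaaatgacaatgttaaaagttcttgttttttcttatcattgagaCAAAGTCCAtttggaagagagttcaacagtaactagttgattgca

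GTTAAT was found in 9 of 30 plasma protein promoters and 3 of 10 enzyme promoters, beside 6.52% of the 27025 promoters searched. The search took the first full-length window of each gene symbol and none from chromosome 18, where Ttr lies. CAAAGTCCA was found in 0 of 30 and 3 of 10, beside 0.381% of all promoters. TTGNNCAA was found in 4 of 30 and 1 of 10, beside 5.74%. TATAAA, also searched on both strands but not capitalised, was found in 5 of 30 and 3 of 10, beside 12.97%. These matches describe the letters of the window and are not binding data. The Cyp2c68 and Cyp2c40 windows aligned over 216 columns with 206 identical bases (95.4%) and 1 gap, and both held GTTAAT and CAAAGTCCA. This pair of near-copies thus makes up 2 of the 3 enzyme promoters counted for each of these patterns. The related genes Serpina1a and Serpina1b were likewise counted separately among the 9 plasma protein promoters with GTTAAT.

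The level of each gene is its mean of normalized counts over all 6 libraries, as the authors deposited it, and levels of different genes are compared per kilobase of the principal GENCODE transcript. The dissected tissue carried its own markers. Of 18 acinar enzyme genes 16 were present and made up 12.4% of the summed mean counts of all genes, and of 11 islet genes 10 were present and made up 0.214%. The 32 plasma proteins summed to 18697 normalized counts, 0.510% of the total, and the 9 enzymes to 454, 0.0124% of the total. Mean counts exceeded 100 for 23 of the 32 plasma proteins and for 1 of the 9 enzymes. They were under 40 for 5 plasma proteins and 7 enzymes.

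Per kilobase, the median level was 134 for plasma proteins and 11.6 for enzymes, beside 24.96 for all genes with a length. Albumin stood highest per kilobase at 1640, followed by the thyroid hormone carrier Ttr at 1128, the iron carrier Trf at 996 and the fetuin Ahsg at 761. The most abundant enzyme per kilobase was Fah, the last enzyme of tyrosine breakdown, at 52.2, and Cps1, the entry enzyme of the urea cycle, followed at 40.9. The drug-metabolising cytochrome Cyp3a11 was the lowest member per kilobase at 1.43. The classes overlapped in level, since the thrombin inhibitor Serpind1 at 6.94 and Fetub at 8.25 per kilobase lay below 8 of the 9 enzymes. No spread between libraries belongs to these values, because each deposited mean joins all 6 libraries. Reads of near-identical genes add a further limit: of the 31-base words in their transcripts, 83.1% for Cyp2c40, 74.1% for Trf, 65.2% for Serpina1a, 62.0% for Cyp2c68 and 44.7% for Serpina1b also occur in another gene.

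**Figure D1:**
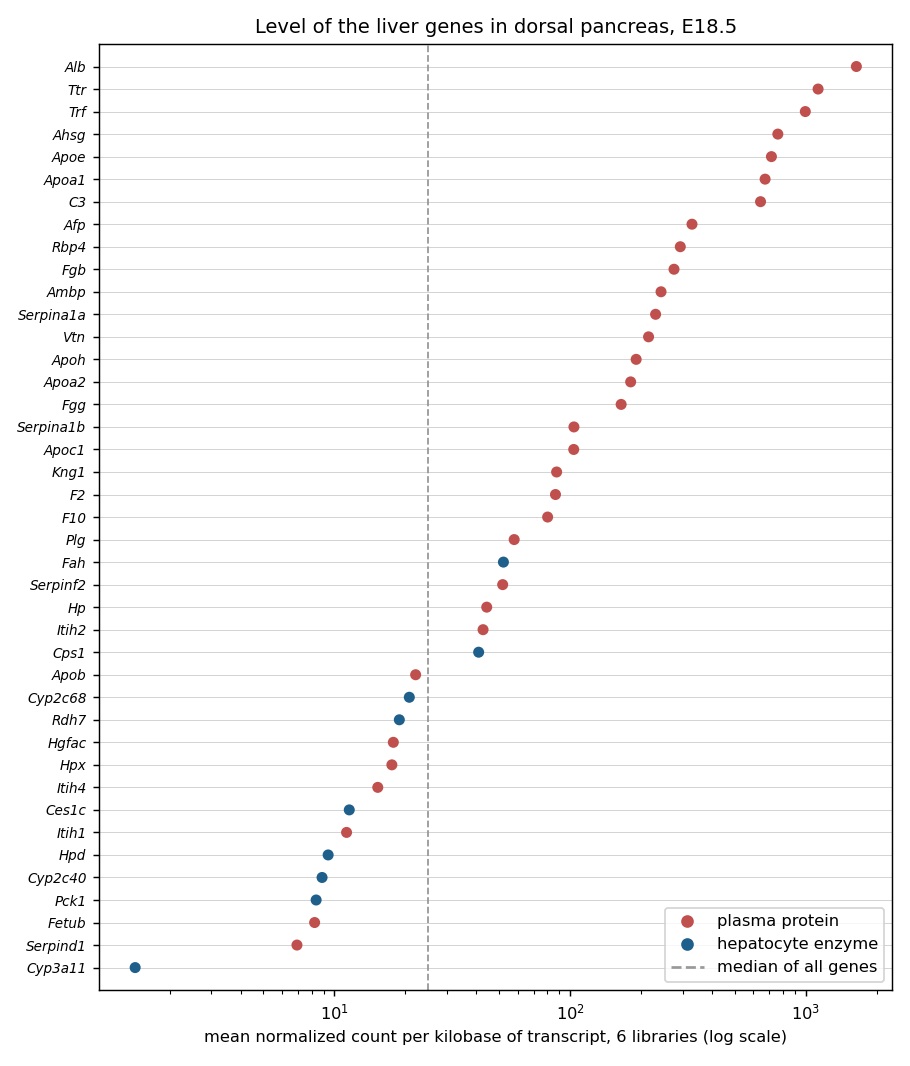
Mean normalized count per kilobase of the principal transcript (log axis) for the 41 liver genes in the table, 1 point per gene over 6 libraries, with plasma proteins in red, enzymes in blue and the median of all genes as a dashed line. Plasma proteins range from 6.94 to 1640 per kilobase and enzymes from 1.43 to 52.2.

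The comparison between control and knockout embryos is the authors' DESeq2 test. The deposited table does not say which group is the numerator, so a gene with a positive deposited sign is called higher and one with a negative sign lower. Knockout over control is the usual order but was not stated, and the table is named for Pdx1, a pancreatic transcription factor, whereas the protocol names Dpy30. At an adjusted p under 0.05 in the authors' deposited table, 5 of the 38 members with an adjusted p were called, against 0.743% of the 12108 genes with one. They were Hgfac, Cyp2c68 and Rdh7 on the higher side (0.264% of all genes) and Ces1c and Cyp2c40 on the lower side (0.479%). At an unadjusted p under 0.05, 14 of the 39 members with a p were higher, beside 2.7% of the 14386 genes with a p, and 2 were lower, beside 2.7%, which makes 16 in either direction, beside 5.39%. The other 2 members with a row, Hp and Pck1, had no p, as had 2.01% of all genes.

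Plasma proteins, as listed here, shared 1 direction. All 31 with a p had a positive sign, and so did Hp, which had no p, whereas 54.8% of all genes with a p were positive and 48.9% of those with a mean count over 100. Of the 31, 11 were higher at an unadjusted p under 0.05, 0 were lower and 1 was called. Of the 8 enzymes with a p, 6 were positive and 2 negative. Of these 8, 3 were higher and 2 lower at an unadjusted p under 0.05, and 4 were called. Ces1c, a lower one counted here as an enzyme, encodes a secreted protein. Filed with the plasma proteins, it would have been their only negative member. All members were read in the same 6 libraries, so their signs are not independent of each other, and no test of the list was run.

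**Figure D2:**
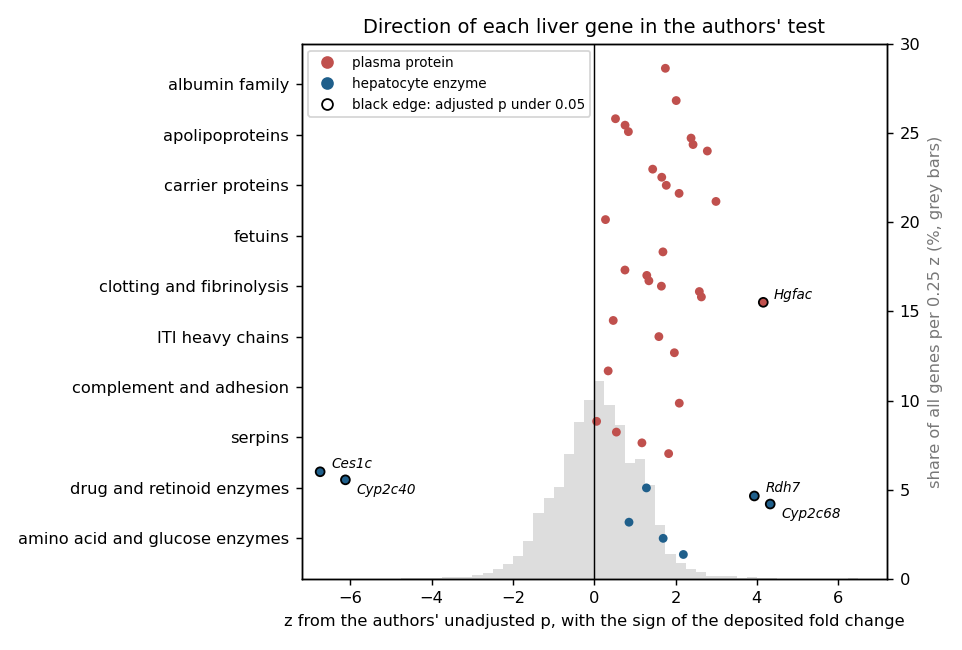
The z of the authors' unadjusted p, with the sign of the deposited fold change, for the 39 liver genes with a p, in rows by role, over grey bars giving the share of all 14386 genes with a p per 0.25 z. All 31 plasma proteins lie above 0, and the points with a black edge are the 5 genes the authors called.

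By their values the deposited fold changes were shrunken towards 0, and unshrunken values were reconstructed where the deposited error and p allowed. Reconstructed sizes of single genes are quoted here for SEs up to 1.5, whereas medians take every reconstructed value. Across the 22 plasma proteins with a reconstructed value the median log2 fold change was 1.13 (quartiles 0.89 and 2.05), beside 0.08 for all genes and -0.02 for genes with a mean count over 100. Of these 22, 15 had an SE up to 1.5, and the largest SE was 3.25. The reconstruction keeps the deposited sign, so all 22 were positive by construction. The 95% interval lay above 0 for 5 of them, which largely restates an unadjusted p under 0.05. The 13 plasma proteins made mostly by liver had a median of 1.05 and the 9 also made elsewhere a median of 1.38. All 5 intervals above 0 belonged to the 9 also made elsewhere, and 0 to the 13 made mostly by liver. These 5 were Apoa1, Afp, Ttr, C3 and Apoe. All members are liver genes, so those filed as also made elsewhere are made by liver as well. The contrast depends on how genes such as Afp and Apoa1 were filed. Errors differed too, with a median SE of 1.46 for the 13 and 0.70 for the 9. With or without a reconstructed value, 4 of 20 made mostly by liver and 7 of 11 also made elsewhere passed the unadjusted threshold. The 1 called, Hgfac, was among the 20. The difference between these groups was not tested. The sizes depend on the shrinkage prior: the plasma protein median was 0.17 with a prior scale of 0.388 in place of 0.3103 and 0.06 in the deposited shrunken values. Only 2 of the 9 enzymes had a value with an SE up to 1.5, so their median size was not set beside that of the plasma proteins.

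In the albumin family, albumin was read at a mean of 3336 counts, with a deposited log2 fold change of 0.07 and p = 0.0803 before adjustment in the authors' DESeq2 test. Alpha-fetoprotein, the fetal counterpart of albumin, had a mean count of 679 and a reconstructed log2 fold change of 1.44 ± 0.70 (SE), which is 2.71-fold. Its unadjusted p was 0.0439 and its adjusted p 0.747 in the authors' DESeq2 test. Both genes were positive and neither was called.

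The 6 apolipoproteins in the table were all positive, and 3 had an unadjusted p under 0.05. Apoa1, the main protein of high-density lipoprotein, had a mean count of 696 and a reconstructed log2 fold change of 2.20 ± 0.80 (SE), which is 4.60-fold, with an unadjusted p of 0.00542 and adjusted p = 0.309 in the authors' DESeq2 test. Apoe, which clears lipoprotein remnants, had a mean count of 1007 and a reconstructed value of 0.79 ± 0.33 (SE), 1.73-fold. Its unadjusted p was 0.0173 and its adjusted p 0.557 in the authors' DESeq2 test. Apob, the structural protein of low-density lipoprotein, had a mean count of 308, no reconstructed size, an unadjusted p of 0.0151 and adjusted p = 0.523 in the authors' DESeq2 test. None of these 3 passed adjustment. Apoa2, Apoc1 and Apoh had unadjusted p values of 0.602, 0.449 and 0.402 in the authors' DESeq2 test, at mean counts of 93.6, 55.1 and 227.

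The 6 carriers were all positive as well. Trf had a mean count of 2560 and a reconstructed value of 2.28 ± 1.23 (SE) on the log2 scale, whose 95% interval ran from -0.13 to 4.69. Ttr had a mean count of 1338 and a value of 1.13 ± 0.54 (SE), 2.19-fold, with an unadjusted p of 0.0369 and adjusted p = 0.714 in the authors' DESeq2 test. The heme carrier Hpx was read little, with a mean count of 26.3, but had an unadjusted p of 0.00275 and adjusted p = 0.195 in the authors' DESeq2 test, without a reconstructed size. Both Rbp4, the retinol carrier, at 1.38 ± 0.82 (SE) and Ambp, a precursor of alpha-1-microglobulin, at 1.05 ± 0.72 (SE) had 95% intervals that included 0. Hp, the hemoglobin-binding haptoglobin, had a mean count of 59.6 and no p. It is taken as read in more than 1 library, but how its reads divided among libraries is not known.

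Ahsg, a mineral-binding fetuin, had a mean count of 1130 and a reconstructed value of 2.09 ± 1.18 (SE), and the related Fetub a mean count of 13.2 and an unadjusted p of 0.783 in the authors' DESeq2 test. C3, the central complement component, had a mean count of 3302 and a value of 0.88 ± 0.42 (SE), 1.84-fold, with an unadjusted p of 0.0365 and adjusted p = 0.711 in the authors' DESeq2 test. Vitronectin (Vtn), a plasma adhesion protein, had a mean count of 375 and a value of 0.22 ± 0.62 (SE), the smallest size among the 17 members in the plot of reconstructed values. The difference between C3 and Vtn was not tested.

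Clotting and fibrinolysis held 7 members with a row, all positive, and the 1 plasma protein that was called. Fgb, a fibrinogen chain, had a mean count of 1052 and a reconstructed value of 2.39 ± 1.37 (SE), with an interval from -0.30 to 5.08. Its partner chain Fgg had a mean count of 279, an unadjusted p of 0.00975 and adjusted p = 0.410 in the authors' DESeq2 test. F10, the clotting factor that activates prothrombin, had a mean count of 201, an unadjusted p of 0.00841 and adjusted p = 0.383 in the authors' DESeq2 test. Prothrombin (F2) had a value of 1.92 ± 1.43 (SE) and plasminogen (Plg) one of 0.94 ± 1.23 (SE). Kng1, the kininogen, had an unadjusted p of 0.179 in the authors' DESeq2 test, and 26.5% of its 31-base words are shared with Kng2.

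Hgfac, the protease that activates hepatocyte growth factor, was higher at an adjusted p of 0.00810 in the authors' DESeq2 test. Its mean count was 37.98, and its deposited log2 fold change was 8.57 ± 3.46. With that mean, such a fold corresponds to fitted group means of 75.8 and under 1 normalized count, so its size is not determined. Hgfac is taken as read in more than 1 library, by a rule given with Ces1c below.

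Among the inter-alpha-trypsin inhibitor heavy chains, which stabilise hyaluronan matrix, Itih2 had a reconstructed value of 2.44 ± 1.46 (SE). Itih4 had a mean count of 54.0, an unadjusted p of 0.0488 and adjusted p = 0.770 in the authors' DESeq2 test, and Itih1 an unadjusted p of 0.642. The 4 serpins in the table, inhibitors of proteases, were positive without an unadjusted p under 0.05. Serpinf2, the plasmin inhibitor, had a value of 1.01 ± 0.85 (SE). Serpina1a, Serpina1b and Serpind1 had unadjusted p values of 0.587, 0.0674 and 0.955 in the authors' DESeq2 test. No serpin or fetuin passed even the unadjusted threshold.

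**Figure D3:**
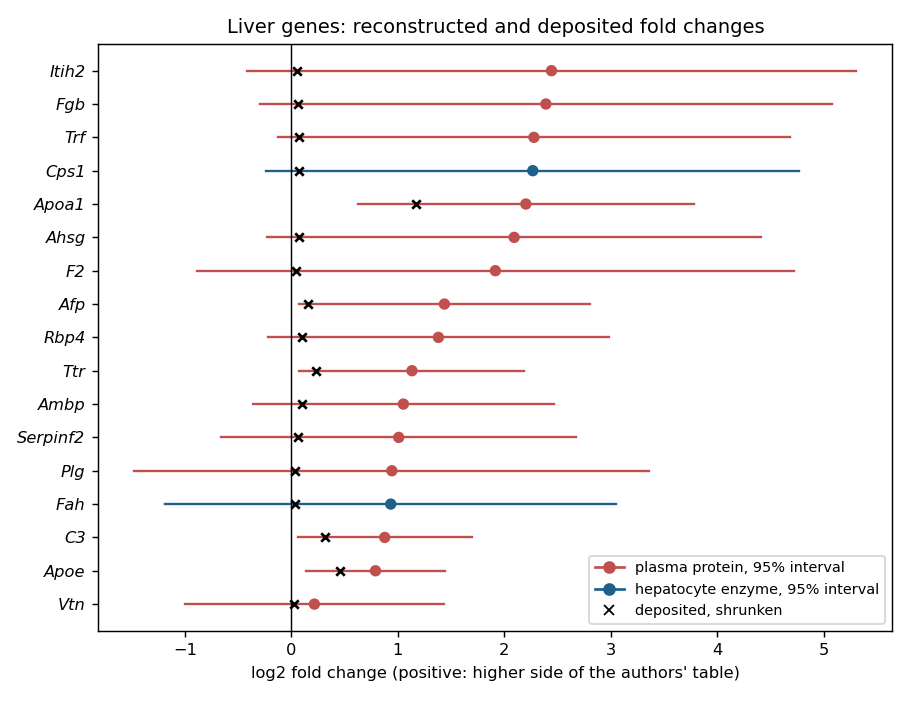
Reconstructed log2 fold changes with 95% intervals (points and lines) and deposited shrunken values (crosses) for the 17 liver genes with an SE up to 1.5, plasma proteins in red and enzymes in blue. All 17 points keep their positive deposited sign, from 0.22 for Vtn to 2.44 for Itih2, and the intervals of Apoa1, Afp, Ttr, C3 and Apoe lie above 0.

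Of the 4 called enzymes 2 were higher and 2 lower. With only 1 plasma protein called, the directions of the calls cannot be compared between the classes. Cyp2c68, a cytochrome P450 of the drug-metabolising Cyp2c family, was higher with a mean count of 35.85, a deposited log2 fold change of 8.59 ± 3.34 and adjusted p = 0.00479 in the authors' DESeq2 test. Rdh7, a retinol dehydrogenase, was higher at a mean of 31.65 counts, a deposited log2 fold change of 8.14 ± 3.52 and adjusted p = 0.0160 in the authors' DESeq2 test. For these 2 genes the fitted means of the higher group were 71.5 and 63.1 normalized counts, again against a group at under 1.

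Ces1c, a secreted carboxylesterase, and Cyp2c40, the neighbour of Cyp2c68 on chromosome 19, were lower, with mean counts of 21.1 and 16.0. Their adjusted p values were 1.66e-08 and 6.85e-07 in the authors' DESeq2 test, yet both had a deposited log2 fold change of -0.01 ± 0.22. Both were read in a single library. A gene read in 1 library has a mean that is a whole multiple of what 1 read of that library adds to the mean of 6, and 1080 of all genes (7.36%) had such a mean, with at least 10 reads, to within the rounding of the 10 digits deposited (1e-09 for means below 10). A gene without such a mean is taken as read in more than 1 library. Genes read in 1 library whose counts were scaled in another way would be missed, and how many was not tested. Their means fell on 6 step sizes, 1 for each library, with 3 on each side. Of the 1080 genes, 0 had a sign opposite to that of their library's side. Which labelled sample each library is cannot be told from the table, so libraries are named by side and size factor.

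All 82 reads of Ces1c and all 62 reads of Cyp2c40 came from the lower-side library with the smallest size factor, 0.646, and the other 5 libraries, the other 2 of the same side included, had 0 reads. Only 4 of the 90 genes the authors called (4.44%) were read in 1 library, and the other two, Riiad1 with 66 reads and 1810010D01Rik with 59, came from that same library. Genes with slightly fewer or more reads there had other p values or none: Rab42 and Cfap100, with 51 reads each, had an unadjusted p of 0.0520 in the authors' DESeq2 test, and Akr1c6, with 88 reads, had no p. Without the genes read in 1 library, an alternative chosen after seeing the data, 3 members were called, all higher, and 0 members were lower at an unadjusted p under 0.05. The 36 members with a p that are taken as read in more than 1 library were all positive, beside 54.2% of all such genes.

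Of the other enzymes, Cyp3a11 with 23 reads and Pck1, the entry enzyme of gluconeogenesis, with 153 reads were read in 1 library too, a higher-side one with a size factor of 1.15. Cyp3a11 had an unadjusted p of 0.1995 in the authors' DESeq2 test, and Pck1 had no p. Among members with a mean count of 3 to 40, 4 of 7 enzymes and 0 of 5 plasma proteins were read in 1 library, beside 10.6% of all genes at that level. The other 27 plasma proteins had higher means, and above a mean count of 100 only 0.0346% of all genes were read in 1 library. Hpd, an enzyme of tyrosine breakdown, is taken as read in more than 1 library. It had a mean count of 13.2, an unadjusted p of 0.0284 and adjusted p = 0.651 in the authors' DESeq2 test. The better-read Cps1 had a reconstructed value of 2.27 ± 1.28 (SE), with an interval from -0.24 to 4.77, and Fah one of 0.93 ± 1.08 (SE). These 2 enzymes lay within the range of the plasma proteins.

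**Figure D4:**
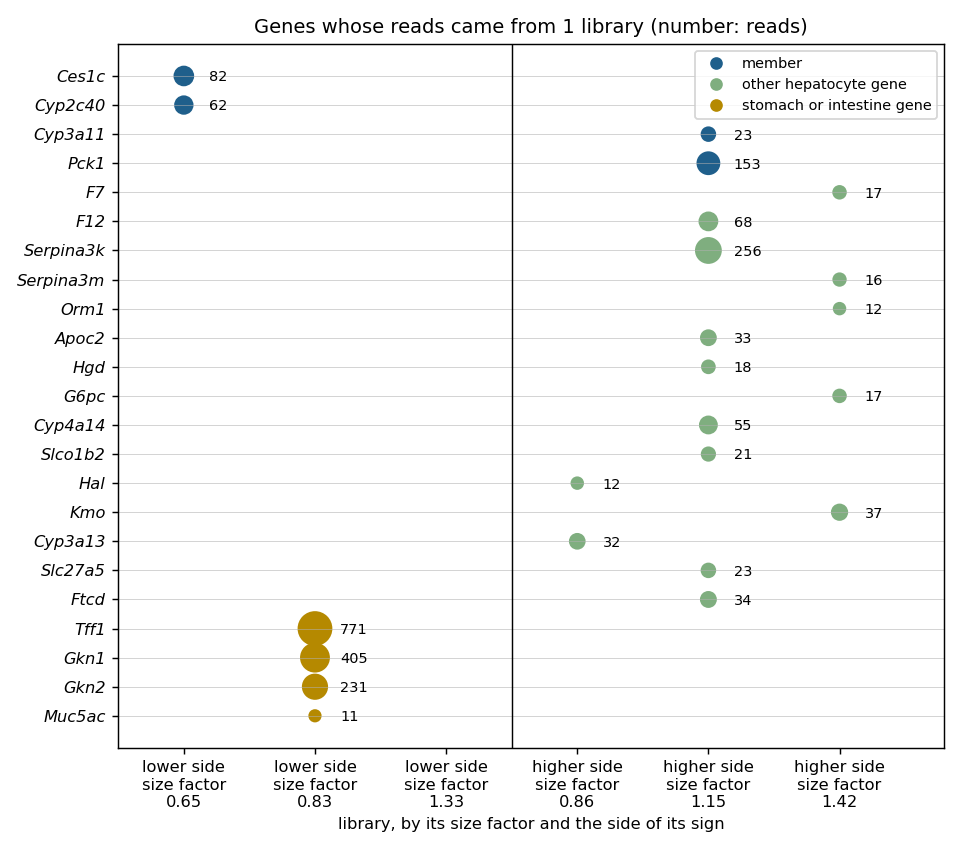
Liver, stomach and intestine genes whose reads came from 1 library, 1 gene per row, placed in that library by side and size factor, with point area growing with the number of reads printed beside it. Ces1c and Cyp2c40 sit in the lower-side library of size factor 0.646, and the other 17 liver genes sit in higher-side libraries. Of all 1080 genes read in 1 library, 665 are on the higher side.

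Further hepatocyte genes, outside the 49, were counted from lists of secreted proteins and of enzymes and transporters. Of all genes with a p, 54.8% were positive and 2.7% lay on each side at an unadjusted p under 0.05. Of 29 other secreted liver proteins with a p, 24 were positive, 0 were called, and 3 were higher and 0 lower at an unadjusted p under 0.05. Pzp, a protease-trapping macroglobulin, had a mean count of 411, a reconstructed value of 2.77 ± 0.81 (SE) and an adjusted p of 0.0689, and Hrg, a histidine-rich plasma protein, 29.6 mean counts and adjusted p = 0.119 in the authors' DESeq2 test. Of 40 other hepatocyte enzymes and transporters with a p, 29 were positive, 0 were called, and 3 were higher and 3 lower at an unadjusted p under 0.05. The 3 lower ones ran against the sign of the plasma proteins. Ass1, an enzyme of arginine synthesis, had a mean count of 669, a value of -1.01 ± 0.37 (SE) and adjusted p = 0.333 in the authors' DESeq2 test. Ugt2b34, which conjugates drugs and steroids, had a mean count of 160, a value of -1.90 ± 0.81 (SE), with an interval from -3.49 to -0.31, and an unadjusted p of 0.0222 in the authors' DESeq2 test. Hsd17b13, a lipid droplet enzyme, had a mean count of 135, no reconstructed size and an unadjusted p of 0.00637 in the authors' DESeq2 test. Of the 72 genes of both lists that had a row, 48 had a mean count under 40. Read in 1 library were 15 of the 72, beside 7.36% of all genes and 10.6% of those with a mean count of 3 to 40. All 15 were on the higher side, as were 665 of all 1080 genes read in 1 library. The library that also held Pck1 and Cyp3a11 held 8 of the 15, and 279 of the 1080. Among the 15, Serpina3k had the most reads, 256.

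Hepatocyte transcription factors did not share the sign of the plasma proteins. Of 13 with a p, 3 were positive and 10 negative, 0 were called, and 1, the xenobiotic receptor Nr1i2, was lower at an unadjusted p of 0.0270 in the authors' DESeq2 test. Hnf4a, which is also active in pancreas, had a mean count of 207 and a reconstructed value of -0.09 ± 0.61 (SE). Foxa3 had a mean count of 118 and a value of -1.59 ± 0.84 (SE). Cebpa, Nr1i3, Foxa1 and Onecut1 had no row. Many of these factors are shared with pancreatic epithelium.

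Markers of the other cells of fetal liver were mostly positive, 27 of 34 with a p, beside 54.8% of all genes with a p. Of the 34, 4 were higher and 0 lower at an unadjusted p under 0.05, beside 2.7% of all genes on each side. Several of these cell types, such as macrophages, are not limited to liver, so the counts do not isolate it. Stab2, a scavenger receptor of liver sinusoidal endothelium, was higher, with a mean count of 55.1, a deposited log2 fold change of 9.53 ± 3.25 and adjusted p = 0.000256 in the authors' DESeq2 test, whereas the related Stab1 had a value of -0.32 ± 0.51 (SE). Of the 4 sinusoidal genes with a p, 3 were positive. Of 14 erythroid genes with a p, 10 were positive and 1 was called, Gata1, a red cell transcription factor with 29.4 mean counts and adjusted p = 0.0235 in the authors' DESeq2 test. Of 11 macrophage and Kupffer cell genes, 10 were positive and 0 called, with a median reconstructed value of 0.37. The Kupffer cell lectin Clec4f had a mean count of 12.2 and an unadjusted p of 0.0353 in the authors' DESeq2 test, and Marco and Timd4 had mean counts of 4.20 and 2.29. Of 5 stellate cell genes, 4 were positive and 0 called. Hand2, a transcription factor of stellate and other mesenchymal cells, had a mean count of 377, a value of 1.01 ± 0.48 (SE) and an unadjusted p of 0.0378 in the authors' DESeq2 test, and Colec11 had a mean count of 8.27 and an unadjusted p of 0.367.

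Markers of the pancreas itself carried mostly the opposite sign. All 9 islet genes with a p were negative, and 4 were called lower: Ins2, Chga, Chgb and Gcg, with reconstructed values from -3.56 to -2.41. Of 16 acinar enzyme genes 13 were negative and 12 were called lower, with a median reconstructed value of -1.94. The 3 positive ones were Try4, Cela1 and Pnlip, with mean counts of 9460, 16984 and 7.23. In the authors' DESeq2 test Try4 had an unadjusted p of 0.000827 and adjusted p = 0.0854, and Cela1 an unadjusted p of 0.0483. The called acinar genes included Clps, Cpa1, Pnliprp1, Cela2a, Prss2, Rnase1, Cela3b, Pnliprp2, Amy2a5, Prss1 and Cpb1, with values from -3.19 to -1.30. Of 18 pan-epithelial genes with a p 17 were negative, and 1, the keratin Krt18, was called lower. Set relative to the pan-epithelial genes, whose weighted mean was -0.68, the plasma protein median was 1.81 in place of 1.13, a shift by the same amount for every gene. Normalized counts are shares of a library, and the part that the lower pancreatic genes, or liver tissue carried along at dissection, had in the signs of the liver genes was not tested.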

How the data were processed

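Total RNA of 3 control and 3 knockout samples was sequenced after ribosomal depletion with a stranded SMARTer kit, per the labels' protocols. Trimmomatic, Salmon and DESeq2 and the build GRCm38 (mm10) are named in the submitters' processing notes; their versions, and the design formula, were not given in the sources used here. A single table of DESeq2 results was deposited by the authors, with no per-library values: a signal (each gene's normalized count averaged over the 6 libraries), log2 fold changes with an error, and the p-value and adjusted p-value of the authors' test. That the fold changes are shrunken is read from their values, since most lie near 0, and is not stated. The test is read as given, and none was run again. The depth of each library is unknown, and the series' single-cell experiment is not analysed here.

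Unshrunken log2 values were reconstructed by inverting a Cauchy prior of scale 0.3103. This scale was the one at which the most genes had a z within 0.1 of that of the deposited p-value. Values were kept by that same match, for 13079 of 14386 genes with a p (90.9%), so this share is no separate check. The arithmetic was tested on simulated data drawn under the same model. Single-library genes were found as whole multiples, of at least 10 reads, of a library's step, to within the rounding of the 10 deposited digits. Sequence windows of Cyp2c68 and Cyp2c40 were aligned locally with Biopython. Python 3.11.15, numpy 2.4.6, pandas 2.3.3 and scipy 1.17.1 were used.

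The members and lists were chosen with earlier results of these data known. By rule, members with an unadjusted p under 0.05 or among the 10 highest mean counts were named with their values, the others with a value or a count, and of other lists the called genes or else the 2 with the smallest p. Not every gene this rule takes is reported here. Genes named for being read in 1 library, and others named beside a count, were chosen after their values were seen.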

Additional observations from a re-analysis of the deposited data

How the results depend on the processing

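The 5 called members stayed 5 at an adjusted p under 0.1, with p adjusted over all genes with a p, and with a mean count of at least 10; without genes read in 1 library, a setting chosen after seeing the data, 3 were left. The 14 higher members at an unadjusted p under 0.05 stayed 14 with a mean count of at least 10 and without genes read in 1 library, where the 2 lower ones became 0. Relative to pan-epithelial genes 14 members were higher and 0 lower, but these were in part different genes. Of the 14 before, 8 have no reconstructed value and drop out, among them all 3 called higher ones, as do both lower ones. The other 6 stayed higher, and 8 members not past the threshold before were added. This setting adds 0.68 to each reconstructed value, and all 26 were positive before, so none could become lower. The error of the added amount was not counted. The plasma protein median of 1.13 was 0.063 in the deposited shrunken values, 0.83 with a prior scale of 0.233 in place of 0.3103 (5 values left), 0.17 with a scale of 0.388 and 1.81 relative to pan-epithelial genes. The enzyme median of 5.10, from 4 values with SEs up to 6.44, was 0.027 as deposited, 0.073 with the larger scale, 2.27 with a mean count of at least 10, 2.27 without genes read in 1 library and 5.78 relative to pan-epithelial genes. It had no value with an SE of at most 1 or the smaller scale. The prior scale was fitted to the deposited p-values; the cause of these shifts was not tested. No paired analysis was possible because the table holds no per-library values, and for the same reason leaving out a replicate was not run.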

Other observations

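Several stomach genes were read in 1 library only. The lower-side library with a size factor of 0.834 held all 2578 reads of Bpifb1, a secreted airway and stomach protein, all 771 of the trefoil peptide Tff1, 479 of the pepsinogen gene Pgc, 405 and 231 of the gastrokines Gkn1 and Gkn2, and 11 of the mucin Muc5ac. Of these, Muc5ac had an unadjusted p of 0.228 in the authors' DESeq2 test and the others had no p. The other 5 libraries had 0 reads of each. The other 3 genes of the stomach and intestine list with a row were taken as read in more than 1 library. Tff2, a second trefoil peptide of stomach, had a mean count of 206 and a reconstructed value of -0.53 ± 0.66 (SE). Vil1 had a mean count of 84.9. Lgals4 had a mean count of 57.0, a negative sign and an unadjusted p of 0.0346 in the authors' DESeq2 test. These genes were chosen after their values were seen, apart from the trefoil, gastrokine and mucin genes, which stood on the stomach and intestine list. The lower-side library with a size factor of 0.646 that held Ces1c and Cyp2c40 was a different one.

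G6pc2, a glucose-6-phosphatase of islet beta cells, had all its 195 reads in the lower-side library with a size factor of 1.33. Of all 295 genes without a p, 49 (16.6%) were read in 1 library, beside 7.36% of all genes.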
